A study of Mus musculus with 7 samples.

Results

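T cell receptor signaling genes were examined in s/c tumors of mouse pancreatic ductal adenocarcinoma (PDA) cells with or without a foreign antigen. The 30 genes were taken by name from a list of T cell surface and receptor signaling genes that left out the CD3 and receptor constant genes, and all 30 were among the 22629 rows of the count table. All 7 tumors were formed in C57BL/6 mice with the 1242 PDA cell line, derived from a tumor of a KPC mouse, which carries Pdx1-Cre. The cells had been transduced with SpCas9 and a scrambled guide (sgScramble), and the tumors were harvested 2 weeks after inoculation. The hosts were bought at 6 weeks of age and housed for 2 weeks before use. In 4 tumors, here called icOVA tumors, the sgScramble cells also carried a doxycycline-inducible ovalbumin that stays in the cytoplasm (tumors 15, 16, 18 and 2). The 3 sgScramble tumors (1, 4 and 5) were the controls. Ovalbumin-inducible cells were single-cell cloned, induced with doxycycline food from the day of inoculation and, per the methods, given in a larger inoculum. For the cells of the 3 control tumors the sources used here do not say whether they were a clone, whether they held the ovalbumin vector or whether their hosts ate doxycycline, so the antigen cannot be told apart from the clone, the inoculum or the drug.

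The T cell receptor has no enzymatic activity of its own. The kinase Lck phosphorylates the CD3 and zeta chains, Zap70 binds them and phosphorylates the adaptors Lat and Lcp2 (SLP-76), and the assembled complex activates Ras, protein kinase C theta and the NFAT factors. Phosphatases and inhibitory adaptors set the threshold of this cascade, and coreceptors on the T cell surface feed into it. In a tumor these genes are known chiefly as genes of infiltrating lymphocytes, although several of them are also used by other cells. Lcp2, Ptpn22, Rhoh and Dusp2 are expressed in other blood cells, Prkcq in skeletal muscle, and Nfatc1, Nfatc2, Bcl11b and Gata3 in some epithelial or stromal cells.

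The promoters of 4 of the genes are shown because they belong to the proximal kinases (Lck, Zap70) and to the members with the largest and the smallest log2 fold change (Themis, Nfatc2). Each is the 250 bases before a RefSeq transcript start on GRCm38.p6, read 5′ to 3′ on the strand of the gene and free of annotated exons. They lie at chr4:129573642-129573891 (minus strand, Lck), chr1:36761548-36761797 (plus strand, Zap70), chr10:28668110-28668359 (plus strand, Themis) and chr2:168601658-168601907 (minus strand, Nfatc2). Capitals mark matches, on either strand, to short core motifs of 4 factor families known in T cells. TGTGGT stands for the RUNX family. AGGAAG was searched for the ETS family. For NFAT the letters were GGAAA. The GATA family was searched with AGATAA. The ETS and NFAT motifs share the letters GGAA.
Lck: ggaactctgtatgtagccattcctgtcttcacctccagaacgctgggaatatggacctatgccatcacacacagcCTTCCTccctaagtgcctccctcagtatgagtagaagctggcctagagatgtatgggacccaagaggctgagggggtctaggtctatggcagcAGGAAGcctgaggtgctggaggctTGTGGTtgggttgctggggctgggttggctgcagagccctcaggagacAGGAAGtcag
Zap70: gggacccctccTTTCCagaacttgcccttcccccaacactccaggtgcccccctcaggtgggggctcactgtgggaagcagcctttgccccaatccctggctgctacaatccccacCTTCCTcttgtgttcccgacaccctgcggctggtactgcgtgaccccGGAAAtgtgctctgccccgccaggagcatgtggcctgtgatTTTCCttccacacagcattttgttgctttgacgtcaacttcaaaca
Themis: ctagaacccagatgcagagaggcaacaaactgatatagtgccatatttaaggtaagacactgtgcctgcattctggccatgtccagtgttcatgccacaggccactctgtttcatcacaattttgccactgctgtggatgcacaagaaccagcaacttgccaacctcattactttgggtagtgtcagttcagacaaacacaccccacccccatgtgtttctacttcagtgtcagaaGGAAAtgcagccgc
Nfatc2: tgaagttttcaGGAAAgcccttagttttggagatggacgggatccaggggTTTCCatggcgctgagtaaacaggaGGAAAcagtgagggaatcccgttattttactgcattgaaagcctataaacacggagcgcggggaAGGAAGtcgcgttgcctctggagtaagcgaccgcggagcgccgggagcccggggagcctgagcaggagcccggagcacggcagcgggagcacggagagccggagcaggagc
The Lck window held 3 ETS matches and 1 RUNX match, and the Zap70 and Nfatc2 windows each held 1 ETS match and 3 NFAT matches. The Themis window held 1 NFAT match. RefSeq promoters were matched for 22 of the 30 genes, in 29 windows. Some genes, the 4 shown among them, thus have more than 1 window, and the matches can differ between the windows of a gene. The other Themis window overlaps the one shown and holds the same NFAT match, so the windows are not all separate. The ETS letters were in 15 of the 29 windows (51.7%), beside 29.5% of 32851 promoter windows of all genes. RUNX letters were in 7 (24.1%, beside 14.0% of all windows), NFAT letters in 20 (69.0%, beside 55.6%) and GATA letters in 2 (6.9%, beside 10.0%). A match is a description of the letters in the window and not a bound site.

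Of the 30 genes, 19 were higher in icOVA tumors than in sgScramble tumors and 0 were lower. A gene is called here when its adjusted p in edgeR's quasi-likelihood test, corrected by the Benjamini-Hochberg method over the 17489 genes tested, was below 0.05. All 30 passed the filter on low counts. The background was that 3.36% of all genes tested were called higher and 2.54% lower. At an unadjusted p below 0.05, 24 of the 30 were higher and 0 lower, beside 13.4% and 13.8% of all genes tested. DESeq2 called 24 higher and 0 lower, beside 9.09% and 7.45% of the genes for which it gave an adjusted p. With limma-voom the counts were 15 and 0, beside 2.96% and 2.42%. Cd226, Grap2, Skap1 and Ubash3a, called in edgeR, were not called in limma-voom (adjusted p 0.0580, 0.0598, 0.0608 and 0.0648). In 21 of the 30 every icOVA tumor exceeded every sgScramble tumor, against 11.3% of all genes tested. The median log2 fold change of the 30 was 1.11, beside -0.0048 over all genes tested, and with the libraries scaled to the T cell genes Cd3d, Cd3e and Cd3g or to the leukocyte gene Ptprc it was -0.11 or 0.0093, with 0 or 1 of the 30 called higher. In RNA from whole tumors, more T cells and more RNA of these genes per T cell cannot be told apart. The call depended on the tumors included: with sgScramble tumor 1, sgScramble tumor 5, icOVA tumor 15 or icOVA tumor 2 left out, 0 of the 30 were called, while 21 to 24 were higher at an unadjusted p below 0.05 and the lowest adjusted p among them was 0.0614 to 0.122.

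**Figure D1:**
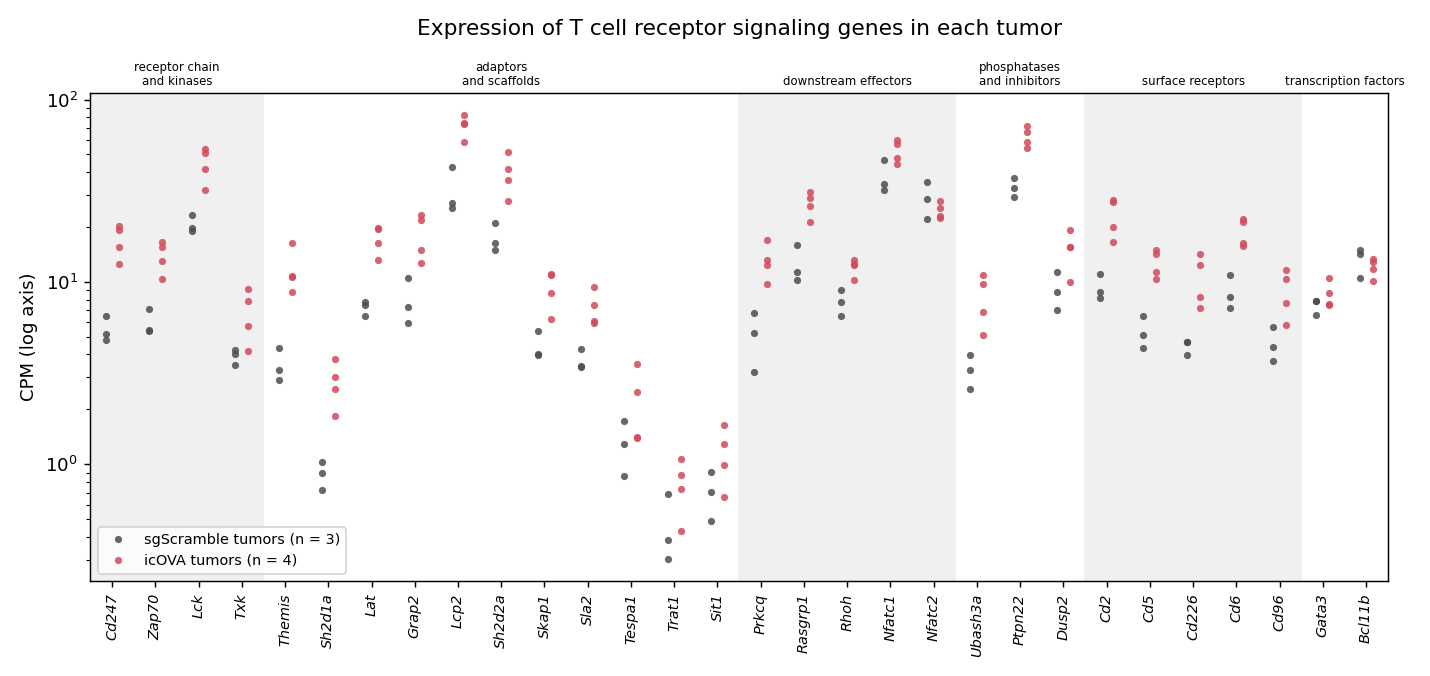
Level of each of the 30 genes in each tumor, in CPM on a log axis, with genes on the horizontal axis grouped by role and 1 point per tumor (3 sgScramble, dark, and 4 icOVA, red). The 4 icOVA tumors lie above all 3 sgScramble tumors for 21 genes, among them Cd247, Lck, Zap70 and Lat, while the points overlap for Nfatc2, Bcl11b and Gata3.

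Among the receptor chain and kinases, 3 of 4 were called higher. Levels are given as CPM, counts scaled to a common library size (TMM). Cd247, on chromosome 1 from 165788681 to 165877277 (GRCm38, GENCODE M21), encodes the zeta chain that carries most of the receptor's signaling motifs. It had 4.81, 6.53 and 5.21 CPM in sgScramble tumors 1, 4 and 5 and 20.4, 12.6, 19.2 and 15.5 CPM in icOVA tumors 15, 16, 18 and 2. The groups were well separated, the lowest icOVA tumor being number 16. Its log2 fold change was 1.62 (adjusted p = 0.0230, SE 0.20), a ratio of 3.07. Cd247 shares 3007 of its 5329 exon bases with Pou2f1 on the opposite strand, and the strand setting of the counting is not given in the sources used here. Pou2f1 itself had 44.3 CPM in sgScramble and 44.7 CPM in icOVA tumors, with a log2 fold change of 0.01 (SE 0.10).

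Lck (chromosome 4, 129548344 to 129573641), the kinase that starts the cascade, had 19.8, 23.2 and 19.0 CPM in the sgScramble tumors and 50.9, 32.1, 53.7 and 41.4 CPM in the icOVA tumors. Zap70 (chromosome 1, 36761798 to 36782818), the kinase recruited to the phosphorylated chains, had 5.44, 7.11 and 5.40 CPM and 15.5, 10.3, 16.6 and 13.0 CPM in the same order. Neither gene overlapped between the groups. Their log2 fold changes were 1.11 (SE 0.18) and 1.21 (SE 0.20), each with an adjusted p of 0.0271. Txk, a Tec family kinase and the member of this group with the smallest change, had 4.26, 4.01 and 3.52 CPM in sgScramble tumors and 7.83, 4.18, 9.15 and 5.72 CPM in icOVA tumors. Here icOVA tumor 16 fell within the sgScramble range, and the log2 fold change of 0.77 (SE 0.27) was not called (adjusted p = 0.121). Among the fits that left out 1 tumor, Txk was called only without icOVA tumor 16, with a log2 fold change of 0.95. Without icOVA tumor 18 it was 0.59 (adjusted p = 0.176).

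The adaptors and scaffolds, which hold the signaling complex together, had 8 of 11 members called higher and 0 lower, with a median log2 fold change of 1.16. Lat (chromosome 7, 126363824 to 126369570), the membrane scaffold phosphorylated by Zap70, had 6.51, 7.75 and 7.45 CPM in sgScramble tumors and 19.7, 13.2, 19.5 and 16.3 CPM in icOVA tumors. The 3 control values lay close together and the lowest icOVA value was well above them, giving a log2 fold change of 1.25 (adjusted p = 0.0230, SE 0.17). Themis (chromosome 10, 28668360 to 28883818), a Grb2-binding protein named for its role in thymocyte selection, had the largest change of the 30 genes. It had 2.91, 4.34 and 3.29 CPM in sgScramble tumors and 16.5, 8.83, 10.6 and 10.8 CPM in icOVA tumors. Tumor 15 stood highest, and the groups did not overlap. The Themis ratio was 3.32 (log2 fold change 1.73, adjusted p = 0.0230, SE 0.25), and its log2 fold change ranged from 1.53 to 1.92 as each tumor was left out.

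Sh2d1a (SAP), the adaptor of SLAM family receptors, was next in size, with 0.883 ± 0.157 CPM (SD, n = 3) in sgScramble and 2.81 ± 0.814 CPM (SD, n = 4) in icOVA tumors. Its log2 fold change was 1.67 (adjusted p = 0.0284, SE 0.29). Sh2d1a rests on 25 to 140 counts per tumor and shares 1465 exon bases with the opposite-strand gene Tenm1, which had a log2 fold change of -0.67 (adjusted p = 0.384, SE 0.47). Lcp2, which binds Lat through the Gads protein and nucleates the complex, had 31.7 ± 9.58 CPM (SD, n = 3) in sgScramble tumors and 72.1 ± 9.79 CPM (SD, n = 4) in icOVA tumors, a log2 fold change of 1.18 (adjusted p = 0.0271, SE 0.20). Gads itself, encoded by Grap2, had a log2 fold change of 1.21 (adjusted p = 0.0473, SE 0.28). Lat, Grap2 and Lcp2, the links of 1 chain, had log2 fold changes from 1.18 to 1.25. The mean of Cd3d, Cd3e and Cd3g, 1.22, lay in the same range.

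The Lck-binding adaptor Sh2d2a (TSAd) had a log2 fold change of 1.16 (adjusted p = 0.0315, SE 0.22). Skap1, which couples the receptor to integrins, had 1.04 (adjusted p = 0.0451, SE 0.24), and Sla2, an adaptor that lowers receptor signaling, 0.95 (adjusted p = 0.0410, SE 0.21). Sla2 shares 731 exon bases with the opposite-strand gene Rab5if, whose log2 fold change was 0.09. The other 3 adaptors, Sit1, Trat1 and Tespa1, were not called. Sit1, an inhibitory transmembrane adaptor, had 0.489, 0.911 and 0.703 CPM in sgScramble tumors and 1.30, 0.659, 1.64 and 0.995 CPM in icOVA tumors. These overlapped, and the log2 fold change of 0.71 (SE 0.37) was not called (adjusted p = 0.257). Trat1 (TRIM), which associates with the zeta chain, had 0.74 (adjusted p = 0.284, SE 0.41) and Tespa1, a protein of thymocyte signaling, 0.77 (adjusted p = 0.266, SE 0.41). Trat1 had 10 to 37 counts per tumor, Sit1 17 to 57 and Tespa1 27 to 123.

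Downstream effectors were divided. Rasgrp1, which activates Ras after diacylglycerol binds it, and Prkcq, protein kinase C theta, were called higher, and Rhoh, Nfatc1 and Nfatc2 were not. Prkcq had 5.27, 6.71 and 3.20 CPM in sgScramble tumors and 17.0, 9.72, 13.2 and 12.4 CPM in icOVA tumors. The groups did not overlap and the log2 fold change was 1.37 (adjusted p = 0.0378, SE 0.28). As Prkcq is also a muscle gene, the summed level of 5 skeletal muscle markers is given beside it: it was 1.90 CPM in icOVA tumor 2 and 2.56 CPM in sgScramble tumor 5, and 54.5 to 128 CPM in the other 5 tumors. The part of muscle RNA in the Prkcq values was not tested. Rasgrp1 had 12.5 ± 3.01 CPM (SD, n = 3) in sgScramble tumors and 26.9 ± 4.25 CPM (SD, n = 4) in icOVA tumors, a log2 fold change of 1.11 (adjusted p = 0.0276, SE 0.19).

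Rhoh, a small G protein of blood cells needed for Zap70 recruitment, had 6.52 to 8.99 CPM in sgScramble tumors and 10.2 to 13.2 CPM in icOVA tumors. These did not overlap, but the log2 fold change of 0.64 (SE 0.15) just missed the threshold (adjusted p = 0.0502). In DESeq2 its adjusted p was 0.00173 and in limma-voom 0.0522. Of the NFAT factors, which calcineurin sends to the nucleus, Nfatc1 had a log2 fold change of 0.47 (adjusted p = 0.114, SE 0.16). Nfatc2 (chromosome 2, 168476410 to 168601657) had 28.6, 22.2 and 35.5 CPM in sgScramble tumors and 27.9, 22.9, 22.5 and 25.4 CPM in icOVA tumors. All 4 icOVA values lay within the range of the controls, and the log2 fold change was -0.22 (adjusted p = 0.406, SE 0.16).

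Phosphatases and inhibitors of the cascade had 2 of 3 members called higher and 0 lower. Ubash3a (Sts-2), which restrains Zap70 and related kinases, had 3.28, 3.95 and 2.59 CPM in sgScramble tumors and 10.97, 5.10, 9.78 and 6.87 CPM in icOVA tumors. No values overlapped, although icOVA tumor 16 came close to sgScramble tumor 4, and the log2 fold change was 1.32 (adjusted p = 0.0447, SE 0.30). Ptpn22, a tyrosine phosphatase that acts on Lck and Zap70, had 33.0 ± 4.05 CPM (SD, n = 3) in sgScramble tumors and 62.4 ± 7.74 CPM (SD, n = 4) in icOVA tumors. The ratio of 1.89 had the smallest standard error of the 30 genes (log2 fold change 0.92, adjusted p = 0.0230, SE 0.12). Dusp2, which inactivates MAP kinases and is induced by activation, had 7.02, 11.4 and 8.76 CPM in sgScramble tumors and 15.6, 10.0, 19.4 and 15.5 CPM in icOVA tumors. Tumor 16 lay below sgScramble tumor 4, and the log2 fold change of 0.74 (SE 0.25) was not called (adjusted p = 0.110).

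Surface receptors had 4 of 5 members called higher, and all 5 had no overlap between groups. Cd2, an adhesion receptor that binds CD48 in mice, had 8.84, 11.1 and 8.19 CPM in sgScramble tumors and 28.0, 16.6, 27.4 and 20.1 CPM in icOVA tumors. Every icOVA value exceeded the highest control, and the log2 fold change was 1.30 (adjusted p = 0.0271, SE 0.22). Cd5, an inhibitory receptor whose level follows signal strength, and Cd6, its relative that binds CD166, had log2 fold changes of 1.26 (adjusted p = 0.0257, SE 0.20) and 1.11 (adjusted p = 0.0283, SE 0.19). The ligand CD155 is shared by Cd226, which is activating, and Cd96. Cd226 had 4.45 ± 0.414 CPM (SD, n = 3) in sgScramble tumors and 10.5 ± 3.31 CPM (SD, n = 4) in icOVA tumors, with a log2 fold change of 1.24 (adjusted p = 0.0381, SE 0.26). Cd96 had 3.69, 5.65 and 4.38 CPM in sgScramble tumors and 11.6, 5.79, 10.4 and 7.65 CPM in icOVA tumors. Tumor 16 was barely above sgScramble tumor 4, and the log2 fold change of 0.96 (SE 0.27) was not called (adjusted p = 0.0784). NK cells also carry Cd96, Cd226, Cd247 and Sh2d1a, and the 5 NK cell markers, with 0 of 5 called, summed to 16.1 to 22.7 CPM in sgScramble and 16.9 to 50.4 CPM in icOVA tumors. Their part in these values was not tested.

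Neither transcription factor was called. Gata3, a factor of T cell development and of type 2 helper cells, had 7.89, 7.84 and 6.56 CPM in sgScramble tumors and 7.46, 7.57, 10.5 and 8.71 CPM in icOVA tumors. Bcl11b, the factor of T lineage commitment, had 14.2, 10.5 and 15.1 CPM and 11.8, 12.9, 10.1 and 13.4 CPM in the same order. Both genes overlapped between the groups, with log2 fold changes of 0.20 (adjusted p = 0.448, SE 0.16) and -0.14 (adjusted p = 0.606, SE 0.16).

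**Figure D2:**
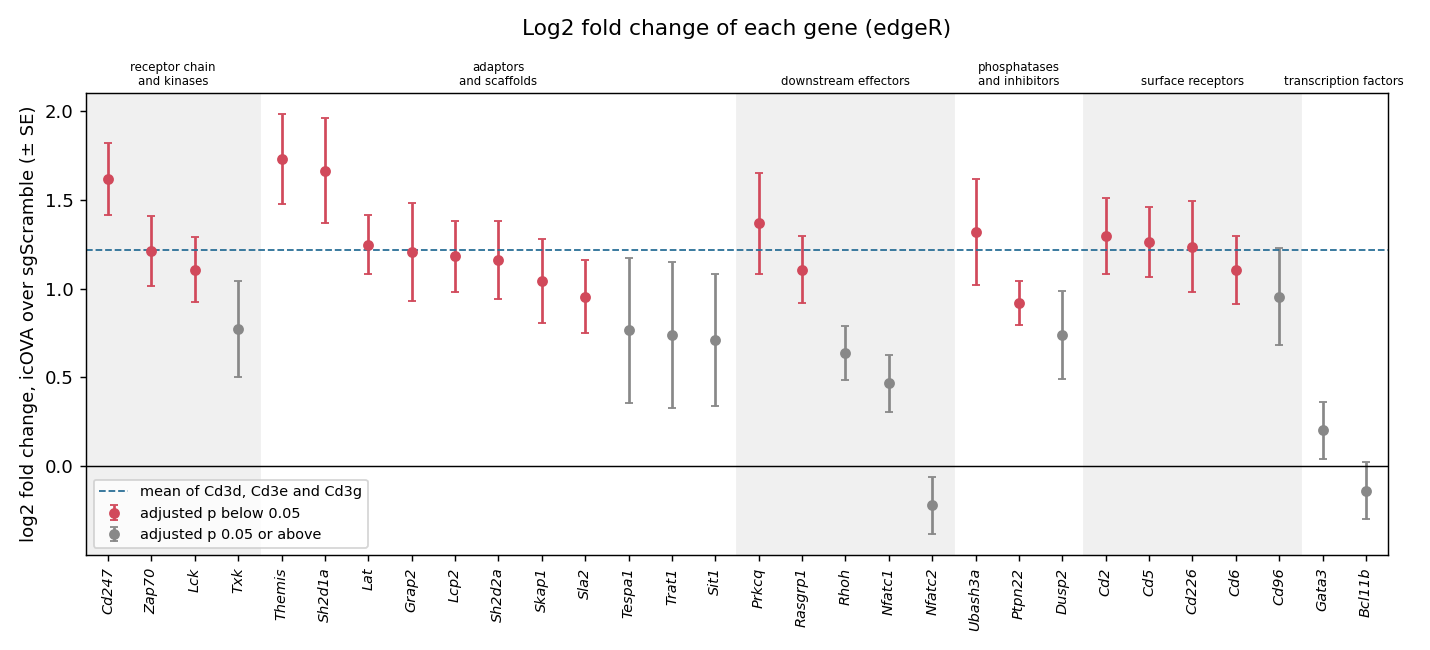
Log2 fold change of each gene, icOVA over sgScramble, from edgeR, with bars of 1 SE, red for an adjusted p below 0.05 and grey for the others. The 19 red genes lie between 0.92 (Ptpn22) and 1.73 (Themis), around the dashed line at 1.22 that marks the mean of Cd3d, Cd3e and Cd3g.

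Other genes of the pathway were taken as a list of 36 that adds the receptor subunits, general kinases, the calcium arm and early response genes. The list holds Cd3d, Cd3e, Cd3g and Trac, which are counted again among the T cell markers below. Of the 36, 15 were called higher and 0 lower, beside 3.36% and 2.54% of all genes tested. In 20 of the 36 every icOVA tumor exceeded every sgScramble tumor, beside 11.3% of all genes tested. At an unadjusted p below 0.05, 23 of the 36 were higher and 0 lower, beside 13.4% and 13.8% of all genes tested. The median log2 fold change of the 36 was 0.60. As with the 30 genes, 0 were called when sgScramble tumor 1 or 5 or icOVA tumor 15 or 2 was left out. The lowest p values were those of Trac, the constant region of the receptor alpha chain (log2 fold change 1.28, SE 0.18), Cd28, the costimulatory receptor (1.52, SE 0.22), Cd3d (1.26, SE 0.19) and Cblb, a ubiquitin ligase that limits signaling (0.61, SE 0.09), with adjusted p values of 0.0230, 0.0230, 0.0241 and 0.0244. Cd28 had 6.25, 8.36 and 7.23 CPM in sgScramble tumors and 27.5, 15.4, 23.2 and 17.4 CPM in icOVA tumors, a separation like that of Themis and Cd247. The highest p values belonged to the broadly expressed genes Ppp3ca, a calcineurin subunit, and Nfatc3, with log2 fold changes of -0.02 (SE 0.07) and -0.03 (SE 0.07). Of the early response genes of the list, Egr1 had a log2 fold change of -0.12 (SE 0.14), Nr4a1 0.05 (SE 0.10), Egr2 0.33 (SE 0.14) and Nfkbid 0.78 (SE 0.19), with adjusted p values of 0.612, 0.774, 0.173 and 0.0515. None of these 4, named after their values were seen, was called, and the groups did not overlap for Nfkbid.

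The level of each gene was next compared with that of the receptor itself. For each tumor the mean log2 CPM of Cd3d, Cd3e and Cd3g was subtracted from the log2 CPM of the gene. The mean log2 fold change of the 3 CD3 genes was 1.22, and the median difference of the 30 genes relative to them was -0.11 on the log2 scale. For 19 of the 30 the groups overlapped on this scale. Among these, Lck, Zap70, Lat and Lcp2 had differences of -0.13, -0.01, 0.02 and 0.0040. Sit1, Tespa1, Trat1 and Txk, whose groups also overlapped, had larger differences of -0.57, -0.52, -0.52 and -0.50. In 3 genes all icOVA tumors stood above every sgScramble tumor, with differences of the group means of 0.49 for Themis, 0.39 for Cd247 and 0.36 for Sh2d1a. Of all genes tested, 0.154% stood above in this way and 81.2% below. Relative to the CD3 genes, Themis was at -1.73, -1.69 and -1.83 in sgScramble tumors and -1.06, -1.23, -1.45 and -1.29 in icOVA tumors. Cd247 was at -1.01, -1.11 and -1.17 and then at -0.75, -0.72, -0.59 and -0.77 on the same scale. Even icOVA tumor 16, the lowest in CPM for most genes, was thus above the controls for both.

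In 8 genes all icOVA tumors stood below every sgScramble tumor, with differences of the group means of -1.41 for Nfatc2, -1.34 for Bcl11b, -1.02 for Gata3, -0.73 for Nfatc1, -0.57 for Rhoh, -0.48 for Dusp2, -0.29 for Cd96 and -0.28 for Sla2. In edgeR with the libraries scaled to the CD3 genes, 4 of the 30 were called lower (Nfatc2, Bcl11b, Gata3 and Nfatc1) and 0 higher, while 82.9% of all genes tested were called lower and 0.314% higher. At an unadjusted p below 0.05 the 30 genes gave the same counts, 0 higher and 4 lower. On this scaling the median log2 fold change over all genes tested was -1.20. Themis, the highest of the 30 on that scale, had a log2 fold change of 0.52 (adjusted p = 0.110, SE 0.30). Scaled instead to Ptprc, which encodes the leukocyte antigen CD45, Themis was called higher (0.63, adjusted p = 0.0440) and the same 4 genes lower, beside 0.4% of all genes tested called higher and 80.4% lower.

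**Figure D3:**
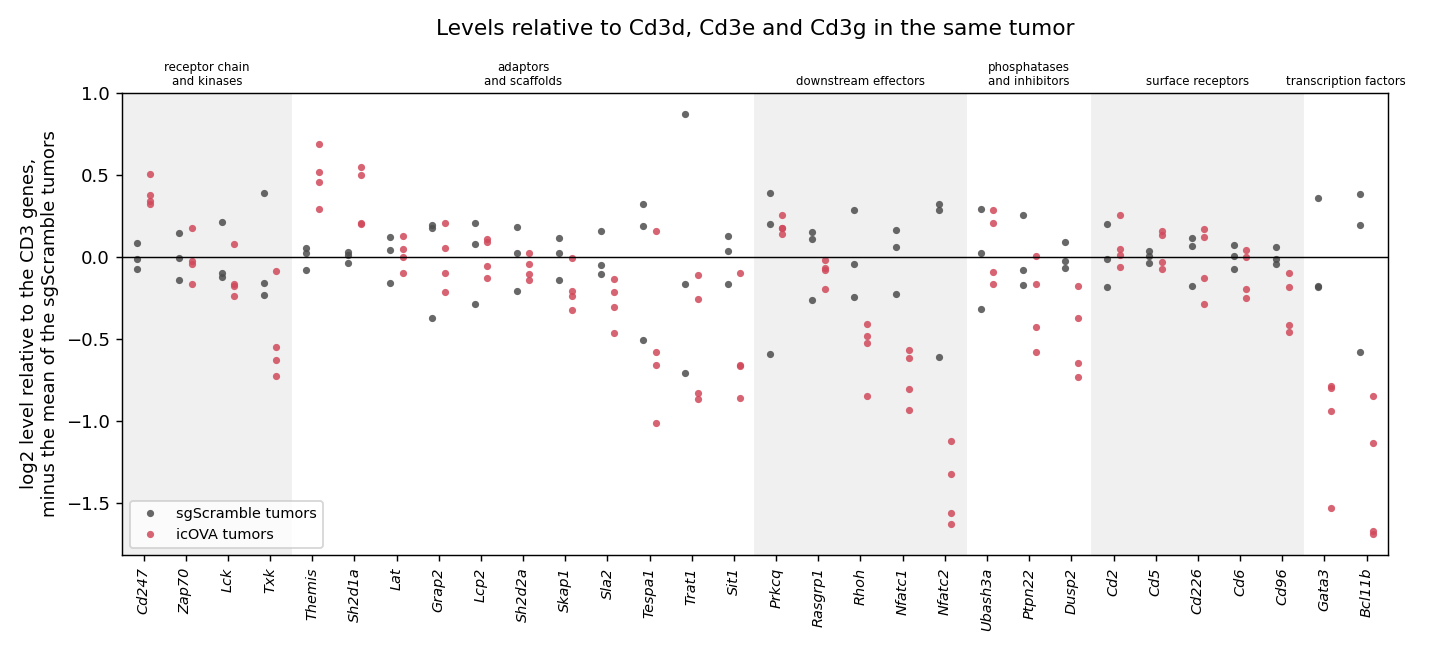
Log2 level of each gene relative to the mean of Cd3d, Cd3e and Cd3g in the same tumor, shown as the difference from the mean of the 3 sgScramble tumors (dark) for these and the 4 icOVA tumors (red). The red points of Lck, Zap70, Lat and Lcp2 lie near 0, and those of Cd247, Themis and Sh2d1a lie above all dark points of the gene. Those of Nfatc2, Bcl11b and Gata3 lie furthest below.

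Per kilobase of exon, the scale on which levels of different genes can be compared, the 30 genes ran from Trat1, at 0.0985 CPM per kilobase in sgScramble and 0.166 in icOVA tumors, to Lcp2, at 7.12 and 16.2. Lck was nearly level with Lcp2 in sgScramble tumors, at 7.06, and reached 15.2 in icOVA tumors. Cd2 followed with 5.38 and 13.2 CPM per kilobase. Nfatc1 stood at 5.06 and 6.995 and Ptpn22 at 4.88 and 9.21, so that both were close to Cd2 in the controls and below it in icOVA tumors. Zap70, at 2.00 and 4.64 CPM per kilobase, was lower than Lck in both groups, and Themis, despite the largest fold change, was at 0.301 and 0.999.

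The tumors kept a similar order across the genes. Among the icOVA tumors, number 16 was the lowest for 25 of the 30 genes and the highest for 0, and number 15 was the highest for 19 and number 18 for 10. Among the controls, sgScramble tumor 4 was the highest for 25. The summed level of the 30 genes was 286, 351 and 281 CPM in sgScramble tumors 1, 4 and 5 and 669.7, 455, 619.5 and 548 CPM in icOVA tumors 15, 16, 18 and 2. Ovalbumin counts, 85 to 151 in the sgScramble and 3413 to 10750 in the icOVA tumors, checked the labels, and the icOVA tumor with the most ovalbumin counts was number 16.

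Markers of T cells and of other cells are given beside these sums, and their part in them was not tested. The 5 T cell markers (Cd3d, Cd3e, Cd3g, Trac and Trbc2) were all called higher and summed to 55.4 to 84.98 CPM in sgScramble and 127 to 196 CPM in icOVA tumors. B cell markers, with 0 of 4 tested called and Ms4a1 too low to test, summed to 2.76 to 4.13 CPM and 5.56 to 6.35 CPM. No B cell marker taken alone separated the groups. In icOVA tumor 16, Pax5 alone made up 4.21 of the 5.56 CPM. Of the macrophage markers 1 of 5 was called. They summed to 624 to 855.8 CPM in sgScramble and 856.3 to 1278 CPM in icOVA tumors. Lymph node and naive lymphocyte markers had 2 of 6 called, with sums of 85.8 to 112 and 134 to 203 CPM. Mast cell markers had 0 of 5 called, with overlapping sums of 27.0 to 149 and 74.6 to 313 CPM. None of the 5 endothelial markers was called, with sums of 151 to 236 and 190 to 461 CPM. For fibroblasts 0 of 5 were called and the sums were 4247 to 10600 and 3831 to 22980 CPM. For epithelial cancer cells 0 of 5 were called and the sums were 4151 to 4379 and 2694 to 4626 CPM. At an unadjusted p below 0.05, 5 of 5 endothelial, 4 of 5 macrophage and 5 of 6 lymph node and naive lymphocyte markers were higher. The same held for 1 of 5 NK cell markers, 1 of 5 mast cell markers and 0 of the B cell, fibroblast and epithelial markers. Of all genes tested, 13.4% were higher at that level.

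**Figure D4:**
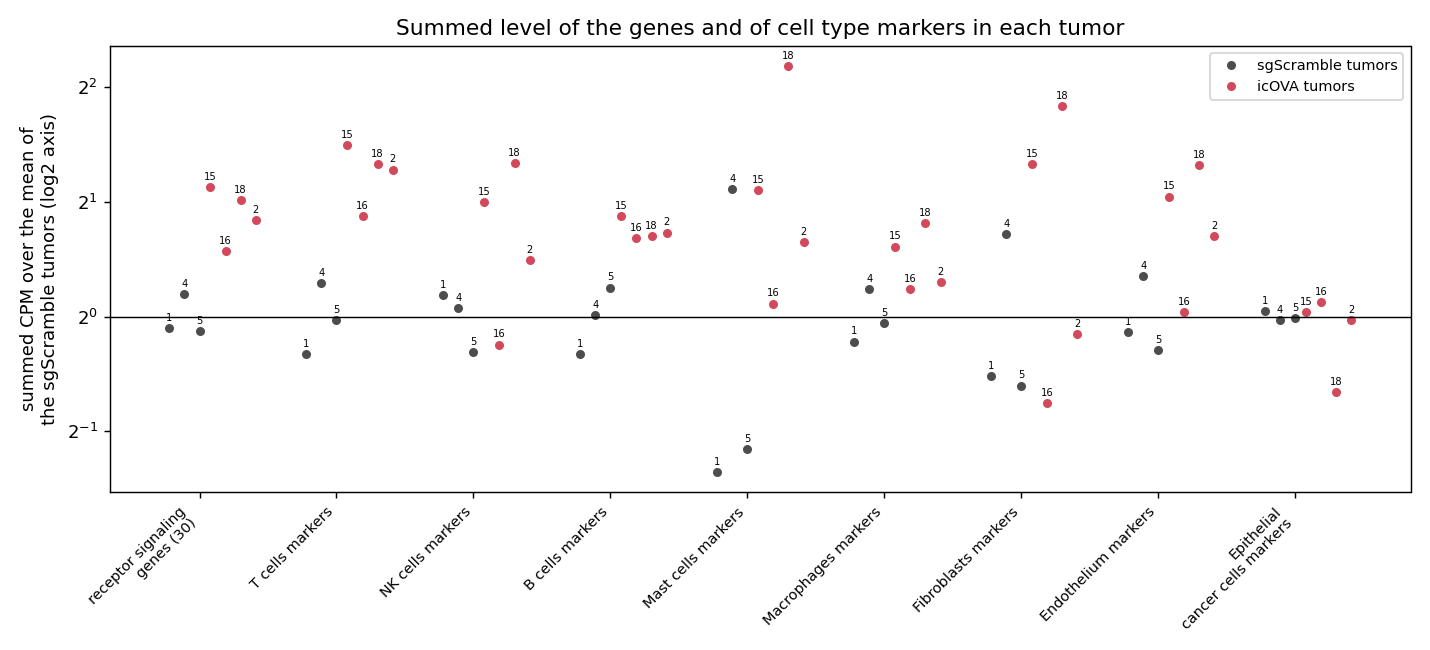
Summed CPM of the 30 genes and of each list of cell type markers in each tumor, divided by the mean of the 3 sgScramble tumors, on a log2 axis, with the tumor number above each point. For the 30 genes and for the T cell and B cell markers all 4 icOVA tumors lie above all 3 sgScramble tumors. The B cell sum of icOVA tumor 16, 5.56 CPM, holds 4.21 CPM of Pax5, and no B cell marker taken alone separated the groups. The macrophage markers of the groups meet at 856 CPM and the other lists plotted overlap.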

How the data were processed

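RNA from 7 s/c tumors (3 sgScramble, 4 icOVA) was sequenced with TruSeq libraries. The labels give polyA RNA, whereas the study's methods name a stranded kit for total RNA. The authors deposited raw counts per gene, whole numbers without normalization. The submitters' processing notes name mm10 (GRCm38), and the aligner, counting tool, annotation and strand setting are not given in the sources used here. Symbols and positions came from GENCODE M21 (22414 rows matched). Total counts ran from 30904855 to 37510591. Tumors are separate samples in the labels, which do not say whether they came from separate mice, so p values measure the spread between these samples.

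Counts were analysed in R 4.3.3 with edgeR 4.0.16: filterByExpr (minimum count 10, minimum total 15), TMM scaling and the quasi-likelihood test without covariates, tested on simulated data. The Benjamini-Hochberg adjustment ran over the 17489 genes tested, with a threshold of 0.05. CPM is scaled by TMM, and log2 CPM has a prior count of 2. Alternatives were DESeq2 1.42.0, limma 3.58.1 (voom), other library scalings and filters, robust dispersion, scaling to Ptprc or the CD3 genes, and leaving out each tumor in turn.

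All 30 genes are named. Values in every tumor are given for Cd247, Lck, Zap70 and Lat and for the largest and smallest log2 fold change in each role group. Of the other pathway genes, those with the 4 lowest and 2 highest p values are named. The members and lists were chosen with earlier results of these data known, and medians and counts over them carry no test. Values of some listed genes are not reported here.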

Additional observations from a re-analysis of the deposited data

How the results depend on the processing

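With edgeR, 19 of the 30 genes were called higher. The other library scalings, filters and robust dispersion gave 19 or 20, DESeq2 24 and limma-voom 15, and across these fits 229 gene results kept direction and side of the threshold, 7 gained a call and 4 lost it. As each tumor was left out, the count ran from 0 to 23. It was 0 without sgScramble tumor 1 or 5 or icOVA tumor 15 or 2, when 0 to 8 genes of the whole table were called, 20 without sgScramble tumor 4, 23 without icOVA tumor 16 and 14 without icOVA tumor 18. In each of these fits 28 of the 30 log2 fold changes were positive and 21 to 26 genes were higher at an unadjusted p below 0.05 (0 lower, except 1 without sgScramble tumor 4). The count of other pathway genes ran from 0 to 19, and the median log2 fold change of the 30 from 1.02 to 1.25.

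Scaled to Ptprc, 1 of the 30 and 0 of the 36 other genes were called higher and the median was 0.0093. Scaled to the CD3 genes, 0 and 0 were called and the median was -0.11, and at an unadjusted p below 0.05 the 30 genes had 0 higher. The median log2 fold change of all genes tested was -1.10 and -1.20 in these fits. Scaled to Ptprc, the log2 fold changes that turned negative were those of Txk -0.35, Skap1 -0.054, Trat1 -0.38, Sit1 -0.38, Sla2 -0.15, Tespa1 -0.32, Rhoh -0.44, Nfatc1 -0.61, Ptpn22 -0.16, Dusp2 -0.34, Cd96 -0.15, Gata3 -0.88 and Cblb -0.48. Scaled to the CD3 genes they were Lck -0.12, Zap70 -0.00090, Txk -0.49, Lcp2 -0.0012, Grap2 -0.016, Skap1 -0.18, Trat1 -0.55, Sit1 -0.50, Sh2d2a -0.067, Sla2 -0.26, Tespa1 -0.47, Rasgrp1 -0.093, Rhoh -0.57, Nfatc1 -0.73, Ptpn22 -0.28, Dusp2 -0.46, Cd6 -0.087, Cd96 -0.27, Cd226 -0.0082, Gata3 -1.003 and Cblb -0.60. As each tumor was left out, Nfatc3 ran from -0.047 to 0.022 (0.0058 without icOVA tumor 18) and Ppp3ca from -0.075 to 0.033 (0.013 without icOVA tumor 15), both positive also without sgScramble tumor 1.

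The median relative to the CD3 genes, -0.11, ran from -0.21 to -0.05 as each tumor was left out, and was -0.24 relative to Trac and Trbc2 and 0.0060 relative to Ptprc. No paired analysis was possible because the sgScramble and icOVA tumors carry different numbers. The lowest counts were those of Trat1, 10 to 37 per tumor, and Sit1, 17 to 57. A test for a single outlying icOVA tumor in each of 36 genes found none, where chance would give about 1.8. The genes shared an order of the tumors, so these were not separate tests, and the control tumors were not examined.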
